A study of Mus musculus with 16 samples.

Results

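Collagen chain genes encode the alpha chains that wind into the triple helix of every collagen molecule. The genes described here are all those with a probe set whose only listed symbol is Col, a number, the letter a and a number, with no limit on signal. They were 42 of 18193 genes with a probe set of a single symbol and were read by 82 probe sets, of which the brightest on average stood for each gene. By structure, 11 are fibrillar chains, 8 are basement membrane chains (type IV, with Col15a1 and Col18a1) and 23 are other chains. Col28a1 and Col6a6 were not analysed here.

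Fibrillar collagens of types I, III and V form the load-bearing cables of airway walls, vessels, pleura and alveolar septa. Type IV chains form the sheet under epithelium and endothelium, which in the alveolus lies between air and blood. Type VI chains form beaded filaments beside basement membranes and fibrils, and smaller families bind to fibril surfaces, span the cell membrane or anchor epithelium. Collagen protein turns over slowly, and the arrays measured chain RNA, not protein.

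RNA of whole lungs from female BALB/c mice was hybridised to 16 Affymetrix mouse GeneChip arrays, 4 in each of 4 groups. Non-pregnant mice, and mice at gestation day 14, received either 50 ug of titanium dioxide (TiO2), baked to remove endotoxin, or phosphate-buffered saline (PBS), the vehicle. Doses were given once by the intranasal route under light halothane, and RNA was taken 19 h later; no label states the age of the mice. The study asked whether pregnancy alters the response of the lung to particles regarded as inert. The labels do not say whether each sample is 1 mouse or a pool, so the p-values measure the spread between samples, which may in part be technical.

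Signals are given as log2(intensity + 16) after quantile normalization, a scale whose lowest value is 4. The median over probe sets lay at 5.94 on every array. A gene passed the signal filter when it exceeded its array's median on at least 4 arrays, and levels were not compared between different probe sets. Arrays of the same group correlated at 0.971 to 0.991 over genes and arrays of different groups at 0.968 to 0.99. Surfactant protein C (Sftpc), the defining marker of alveolar type II cells, was between 13.1 and 13.5 on all arrays. Non-pregnant PBS replicates 3 and 4 carried thymus RNA (Rag1 at 9.16 and 9.66, against at most 5.05 elsewhere). Pregnant TiO2 replicate 2 lacked the squamous keratin Krt13 (5.21) and skeletal muscle Acta1 (6.56), which were above 10 on all other arrays. The label fields of non-pregnant PBS replicate 2 conflict: its source says pregnant and its gestation field non-pregnant. It was kept as non-pregnant, since the labels elsewhere give 4 samples a group.

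Of the 42 chains, 27 passed the signal filter: 7 of 11 fibrillar, 7 of 8 basement membrane and 13 of 23 other chains. The 15 that did not pass include the cartilage chains Col2a1, Col9a1, Col9a2, Col9a3, Col10a1, Col11a1 and Col11a2. They also include Col4a6, Col6a4, Col6a5, Col19a1, Col22a1, Col24a1, Col25a1 and Col26a1. For these chains the arrays give values close to the lowest the scale allows, and folds are understated. The cartilage markers aggrecan (Acan) and Comp read 5.21 to 6.73 and 4.52 to 5.93, and 3 of 12 cartilage markers passed the signal filter.

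No chain passed the test in any of the 6 comparisons (limma with Benjamini-Hochberg adjustment over 18193 genes, threshold 0.05). Among all genes, that threshold called 0.506% in pregnant against non-pregnant lungs after PBS, 0.775% after TiO2 and 2.3% in the mean of both exposures. It called 0.0055% for TiO2 against PBS in non-pregnant mice, 0% in pregnant mice and 0.0055% for the difference of these TiO2 responses. At an unadjusted p under 0.05, limma gave 8, 5 and 10 of 42 chains in the pregnancy comparisons, in the same order, against 10%, 15.8% and 15.4% of all genes. The TiO2 comparisons gave 3, 2 and 3 chains, against 8.49%, 5.91% and 8.96%. The lowest adjusted p of any chain was 0.127, for Col10a1 in the mean of both exposures.

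The intervals give the precision of each difference on the probe set used. In the mean of both exposures, the 95% interval of the pregnancy difference lay within 1.5-fold for 37 of 42 chains (88.1%, against 89.7% of all genes) and within 2-fold for 41. For TiO2 against PBS the interval lay within 1.5-fold for 31 chains in non-pregnant and 32 in pregnant mice, and within 2-fold for 41 in each. The difference between the TiO2 responses was known least well, with 20 chains within 1.5-fold and 35 within 2-fold. Of the 27 chains above the signal filter, 27 lay within 1.5-fold in the mean of both exposures and 24 for TiO2 in each state. Of the 15 below it, 10 did so in that mean, 7 for TiO2 in non-pregnant and 8 in pregnant mice. Folds are understated for those 15, so their intervals do not bound the true change. No interval covers the choice of probe set.

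**Figure D1:**
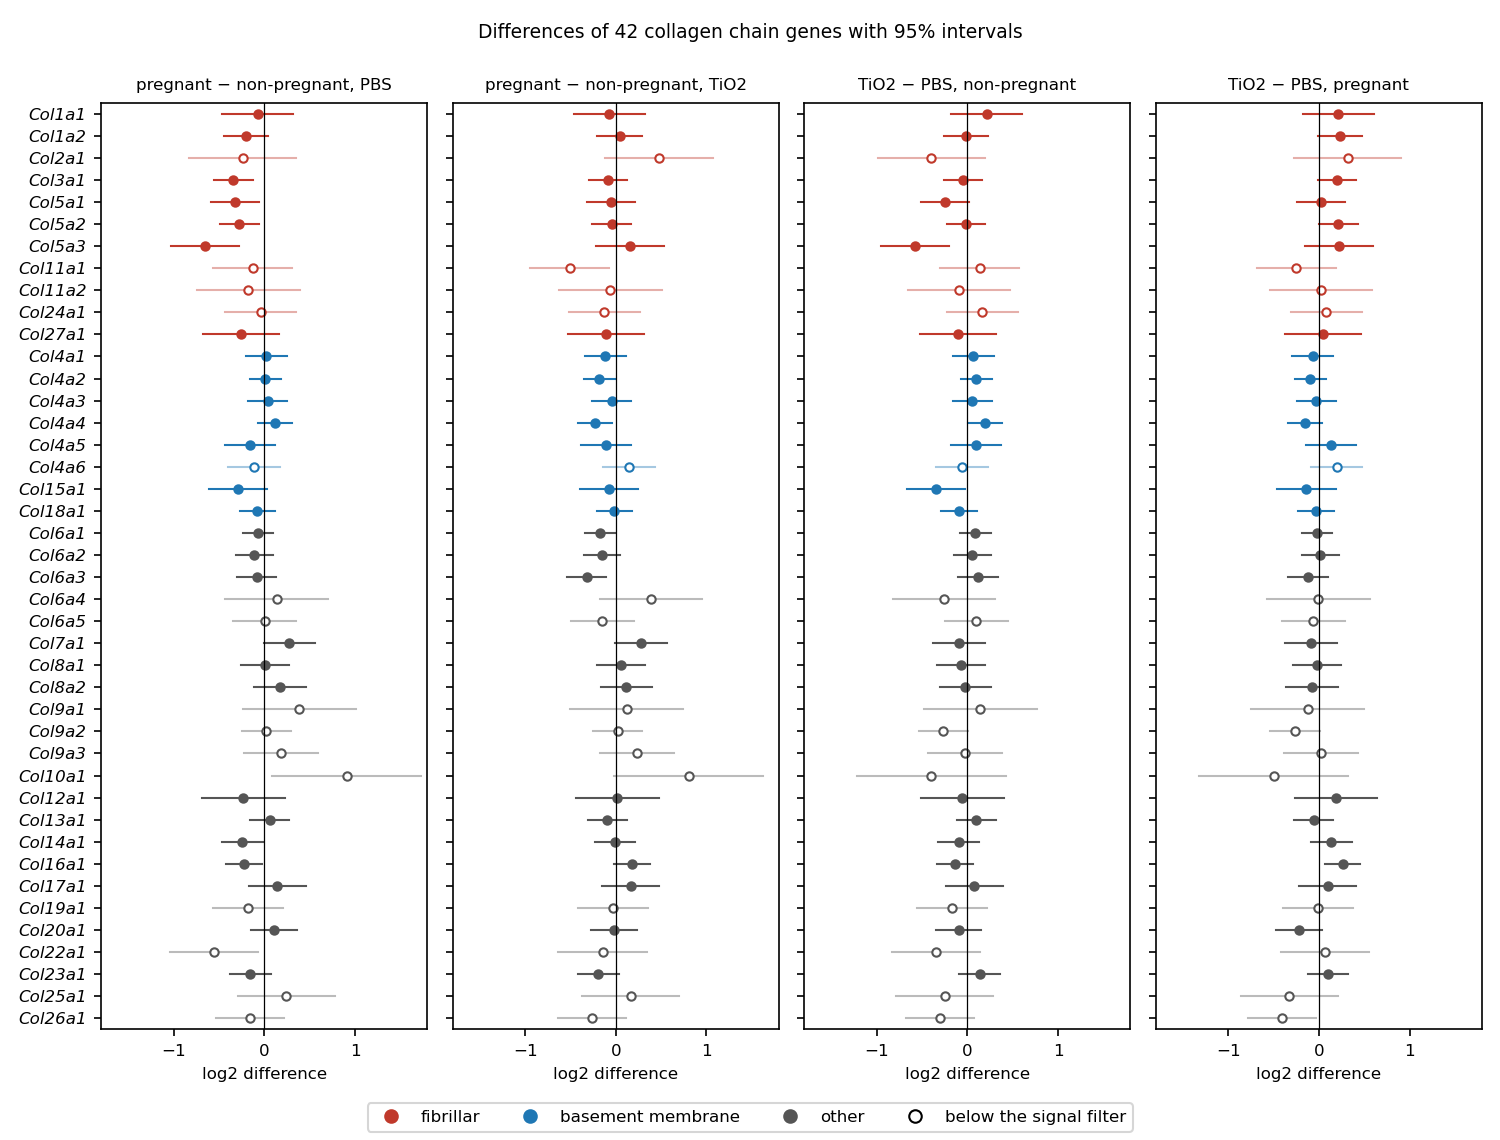
Log2 difference (point) and 95% interval (line) of the 42 collagen chain genes in 4 comparisons, coloured by class, with open points for the 15 chains below the signal filter. After PBS all 11 fibrillar points, 4 of them open, lie on the lower side for pregnancy. Basement membrane points lie between -0.29 (Col15a1) and 0.12 (Col4a4), and the widest interval is that of Col10a1.

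Fibrillar chains lay lower in pregnant than in non-pregnant lungs after PBS in 11 of 11 cases, though none was called. Their median log2 difference was -0.24, against 0.003 for all genes, of which 49.2% were lower. The 11 include 4 chains below the signal filter, Col2a1, Col11a1, Col11a2 and Col24a1, and the median is the difference of Col2a1. A second Col11a1 probe set, above the array median on 0 of 16 arrays, gave 0.58. The count was 10 of 11 with array weights or with the mean of all probe sets, and 9 of 11 with the values as deposited. Without the non-pregnant PBS array whose label fields conflict, 9 of 11 were lower and the median was -0.13. Without the 2 arrays that carried thymus RNA, 11 of 11 were lower and the median was -0.32. Per array, the median deviation of the 11 chains from their 16-array means ran from -0.36 to 0.04 in pregnant PBS lungs and from -0.13 to 0.27 in non-pregnant PBS lungs, so the groups overlapped. Over the 7 chains above the signal filter it ran from -0.36 to 0.04 and from -0.05 to 0.27, also with overlap. Fibroblast markers were also lower in 8 of 12 cases, with a median of -0.17. Mfap5, a microfibril glycoprotein, fell by 0.58 ± 0.10 (limma, adjusted p = 0.0118), a call that held without any single array and was lost with only the groups of the contrast (0.0665) and with the values as deposited (0.882). The lipofibroblast factor Tcf21 rose by 0.46 ± 0.08 (adjusted p = 0.0198), a call lost without any of 5 of the 16 arrays (pregnant PBS replicates 1, 3 and 4 and non-pregnant PBS replicates 1 and 4) and, at an adjusted p of 0.0712, without the thymus-bearing pair. It was also lost with only the groups of the contrast (0.178), the mean of all probe sets (0.0793) and the values as deposited (0.395). The summed fibroblast signal was 37850 to 41010 in pregnant and 39720 to 43130 in non-pregnant PBS lungs, and its part in the chain values was not tested. In whole-lung RNA, fewer cells of a type and less RNA per cell cannot be told apart.

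Col3a1, which encodes the only chain of type III collagen, a fibril that co-assembles with type I in compliant tissue, read 12.51, 12.40, 12.34 and 12.34 in non-pregnant PBS lungs. In pregnant PBS lungs it read 11.87, 11.85, 12.20 and 12.31. Every pregnant array lay below every non-pregnant array, and pregnant replicates 1 and 2 were the lowest of the 16. The difference was -0.34 ± 0.10 (SE; limma, adjusted p = 0.192). Groups separated downward in this way for 2 of 42 chains, both fibrillar, and for 2.02% of all genes. A second Col3a1 probe set gave -0.66. After TiO2 the readings were 12.27, 12.22, 12.28 and 12.27 in pregnant and 12.31, 12.42, 12.27 and 12.37 in non-pregnant lungs, which overlapped, with a difference of -0.08. Without the array of conflicting labels the difference after PBS was -0.34, and without the thymus-bearing pair it was -0.40.

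Col5a3, the alpha3 chain of type V collagen, was the other separated chain. Its readings were 7.75, 6.92, 7.17 and 6.88 in non-pregnant PBS lungs and 6.68, 6.59, 6.49 and 6.35 in pregnant PBS lungs, a difference of -0.65 ± 0.18 (limma, adjusted p = 0.156). After TiO2 it read 6.46, 6.93, 6.66 and 6.36 in non-pregnant and 6.97, 6.63, 6.86 and 6.56 in pregnant lungs. Non-pregnant PBS lungs thus stood highest, and 2 TiO2 arrays, 1 from each group, reached above their lowest reading. TiO2 against PBS was -0.58 ± 0.18 in non-pregnant (limma, adjusted p = 0.400) and 0.23 ± 0.18 in pregnant mice (adjusted p = 0.893). The difference of these responses was 0.80 ± 0.25, with a 95% interval of 0.27 to 1.33 and an adjusted p of 0.487 in limma; these comparisons share arrays. Over the alternatives that difference ran from 0.46, with the mean of both probe sets, to 1.00. Without non-pregnant PBS replicate 1, the highest reading at 7.75, it was 0.61. The same fit gave -0.46 for pregnancy after PBS and -0.39 for TiO2 in non-pregnant mice. Other single arrays left out enlarged both. Pregnancy after PBS gave -0.75 without non-pregnant PBS replicate 4, and TiO2 in non-pregnant mice gave -0.69 without non-pregnant TiO2 replicate 2. All 8 fat markers measured lay lower after TiO2 than after PBS in non-pregnant mice, with a median of -1.22 and none called in limma (7 at an unadjusted p under 0.05). Their summed signal over 8 markers was 6155 to 13500 after PBS and 1670 to 6703 after TiO2, and 5011 to 12970 in pregnant PBS lungs. For TiO2 in non-pregnant mice, thymus markers also lay lower in 10 of 10 cases, cardiac in 7 of 8 and proliferation in 7 of 7. Lung epithelial and fast muscle markers lay higher there, each in 8 of 9. For pregnancy after PBS, fat markers lay higher in 6 of 8 cases, with a median of 0.17. The part of these tissues in the Col5a3 values was not tested. Of the non-pregnant PBS readings, 7.17 and 6.88 are those of the thymus-bearing pair, and the other arrays read 7.75 and 6.92. With Glycam1, a transcript of lymph node venules, as a covariate, Col5a3 gave -0.42 for TiO2 in non-pregnant mice and -0.69 for pregnancy after PBS. The 4 venule markers, Glycam1 among them, summed on average to 837.3 in non-pregnant PBS and 278.8 in non-pregnant TiO2 lungs. In pregnant lungs they summed to 1365 after PBS and 1285 after TiO2. Such unevenness between groups limits what any fit with Glycam1 as a covariate shows.

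The chains of type I collagen, the main fibril of bone, skin and lung scaffold, had wide spread in the pregnant PBS group. Col1a2 read 11.50, 11.63, 12.03 and 11.93 there and 11.95, 12.20, 11.80 and 11.95 in non-pregnant PBS lungs. Pregnant replicates 1 and 2 were again the lowest of all arrays, while replicates 3 and 4 lay inside the non-pregnant range. The difference was -0.20 ± 0.11, with a 95% interval of -0.45 to 0.04 (limma, adjusted p = 0.593). Col1a1 read 10.48, 10.05, 10.64 and 11.10 in pregnant PBS lungs and 10.62, 10.95, 10.31 and 10.67 in non-pregnant PBS lungs, a difference of -0.07. Its 2 probe sets disagreed: the dimmer gave 0.01 for that comparison, but 0.79 against -0.07 for pregnancy after TiO2 and -0.54 against 0.21 for TiO2 in non-pregnant mice. The sign of Col1a1 is therefore not settled in those comparisons.

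Type V chains seed fibrils and limit their width. Col5a1 read 8.41, 8.28, 8.22 and 8.53 in pregnant and 8.50, 8.84, 8.78 and 8.63 in non-pregnant PBS lungs, with 1 pregnant array above the lowest non-pregnant array. Its difference was -0.32 ± 0.12 (limma, adjusted p = 0.373), and its other 2 probe sets gave -0.21 and -0.32. Col5a2 was -0.27 ± 0.10 (adjusted p = 0.342), and its second probe set gave -0.30. Col27a1, a fibrillar chain of developing cartilage, was -0.25 with an interval that spanned 0.

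**Figure D2:**
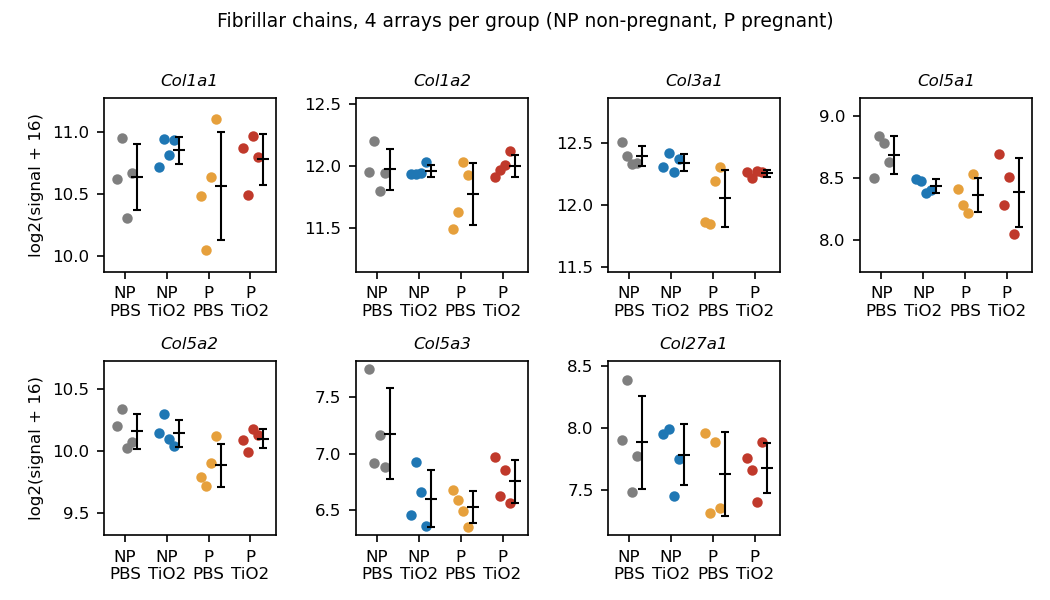
log2(signal + 16) of the 7 fibrillar chains that passed the signal filter, 1 point per array, with mean and SD of each group of 4 arrays (NP non-pregnant, P pregnant). Col3a1 and Col5a3 readings of pregnant PBS lungs lie wholly below those of non-pregnant PBS lungs, and panels have separate axes.

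In pregnant mice, 10 of 11 fibrillar chains lay higher after TiO2 than after PBS, and none was called (limma). The median of the 11 was 0.20, against 0.002 for all genes, and 4 of the 11 lay below the signal filter. The same 4 pregnant PBS arrays enter this comparison and the pregnancy comparison after PBS, so low readings on them move both. The count was 9 of 11 after scaling to a trimmed mean or with array weights, and 7 of 11 with the values as deposited. Without pregnant PBS replicate 2 it was 7 of 11, with a median of 0.13. Col5a2 differed by 0.21 ± 0.10, Col3a1 by 0.20 ± 0.10 and Col1a2 by 0.23 ± 0.11, with adjusted p-values from 0.836 to 0.843 in limma. In non-pregnant mice the median of the 11 chains was -0.05, with 8 lower. The direction turned without the array of conflicting labels, to a median of 0.05 with 5 lower, and without the thymus-bearing pair the median was -0.13 with 10 lower. Without non-pregnant PBS replicate 1 the median was -0.02, and without non-pregnant TiO2 replicates 2 or 3 it was -0.08 or -0.003. Col5a1 separated downward there, from 8.50, 8.84, 8.78 and 8.63 after PBS to 8.49, 8.47, 8.38 and 8.40 after TiO2. Its difference was -0.25 ± 0.12 (limma, adjusted p = 0.612), and 2 of 42 chains, against 2.79% of all genes, separated downward in that comparison. The difference of the TiO2 responses had a median of 0.23 over the 11 chains, 8 of them above 0, against 0.03 for all genes. After TiO2, the pregnancy comparison gave fibrillar chains a median of -0.06, with 8 of 11 lower. Without pregnant TiO2 replicate 2 the median was -0.02 with 7 lower, and without non-pregnant TiO2 replicate 2 it was -0.04 with 6 lower.

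**Figure D3:**
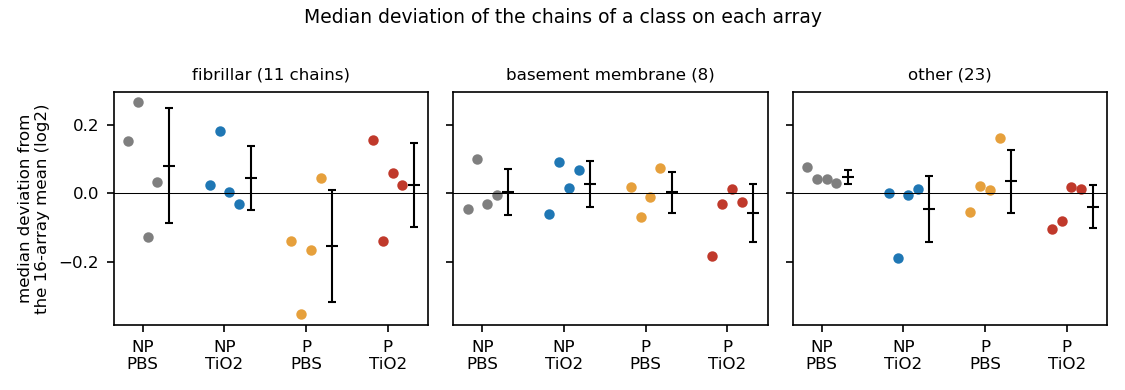
Median deviation of the chains of each class from their 16-array means, 1 point per array, with mean and SD of each group (n = 4; NP non-pregnant, P pregnant). Fibrillar chains average -0.15 in pregnant PBS lungs against 0.08 in non-pregnant PBS lungs with overlapping arrays, while basement membrane group means lie between -0.06 and 0.03.

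Col3a1 and Col1a2 had their 2 lowest readings of the 16 arrays on pregnant PBS replicates 1 and 2, as did Col5a2. For Col3a1 and Col1a2, picked as chains of the main lung fibrils after their values were seen, the 250 bases before the annotated start are shown as RefSeq gives them (GRCm38.p6, strand of the gene, 5' to 3'). The letters searched, on both strands, were those of the CCAAT box (CCAAT), the TATA box (TATAAA) and the GC box (GGGCGG), and no match overlapped another in these windows. Capitals mark their matches. Col1a2 lies at chr6:4505368-4505617 on the plus strand and Col3a1 at chr1:45311288-45311537 on the plus strand. The Col3a1 window holds the TATA box letters 112 to 117 bases before the start, and the Col1a2 window holds 1 CCAAT box and 2 GC box matches.
Col3a1: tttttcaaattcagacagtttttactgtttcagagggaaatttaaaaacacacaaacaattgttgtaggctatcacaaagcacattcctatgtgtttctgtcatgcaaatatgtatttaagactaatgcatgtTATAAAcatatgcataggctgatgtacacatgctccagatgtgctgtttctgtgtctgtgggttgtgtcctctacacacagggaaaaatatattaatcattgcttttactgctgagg
Col1a2: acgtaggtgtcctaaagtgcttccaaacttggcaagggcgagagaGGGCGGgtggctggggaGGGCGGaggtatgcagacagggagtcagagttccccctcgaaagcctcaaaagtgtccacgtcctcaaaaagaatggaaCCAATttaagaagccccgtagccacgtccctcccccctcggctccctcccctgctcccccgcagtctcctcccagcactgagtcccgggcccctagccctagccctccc
Windows were found for 33 of 42 chains. The CCAAT box occurred in 13 of the 33 (39.4%), the TATA box in 5 (15.2%) and the GC box in 20 (60.6%), where a gene counted if any of its windows held the letters. Over all 32851 windows of the same length, counted singly, the shares were 33.8%, 12.4% and 32.7%. A match describes letters and is not a binding site.

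No basement membrane chain was called in any comparison (limma). The alpha1 and alpha2 chains, which form the type IV network of nearly all basement membranes, had differences near 0 for pregnancy after PBS: Col4a1 was 0.02 (95% interval -0.21 to 0.25) and Col4a2 was 0.01. The median of the 8 chains was between -0.09 and 0.06 in all 6 comparisons, and between -0.14 and 0.10 when single arrays were left out. With all 16 arrays, 7 or 8 of 8 intervals lay within 1.5-fold for each except the difference of the TiO2 responses, where 5 did. After TiO2, 7 of 8 lay lower in pregnant lungs, with a median of -0.09, against 44.4% and 0.03 for all genes. Without pregnant TiO2 replicate 1 this became 6 of 8 and -0.05. In the mean of both exposures, 7 of 8 basement membrane, 10 of 11 fibrillar and 12 of 23 other chains lay lower with pregnancy. Of the 27 chains above the signal filter 22 did so (81.5%, against 46.1% of all genes above it). Col4a2 read 11.57, 11.68, 11.75 and 11.67 in pregnant TiO2 lungs and 11.85, 11.85, 11.80 and 11.90 in non-pregnant TiO2 lungs. All pregnant arrays lay below all non-pregnant ones, and the difference was -0.18 ± 0.08 (limma, adjusted p = 0.289). Separation in that direction occurred for 2 of 42 chains and 4.67% of all genes.

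Col4a3 and Col4a4, whose chains join Col4a5 in the network of alveolar and glomerular basement membranes, passed the signal filter. Col4a4 read 9.94, 10.17, 10.14 and 10.05 after PBS and 10.07, 10.42, 10.29 and 10.30 after TiO2 in non-pregnant lungs. In pregnant lungs it read 10.26, 10.16, 10.13 and 10.21 after PBS and 10.07, 10.16, 10.03 and 9.89 after TiO2. On this probe set it thus lay higher with TiO2 in non-pregnant and lower with TiO2 in pregnant lungs, with overlap in both. The difference of these responses was -0.35 ± 0.13, with an interval of -0.61 to -0.08 and an adjusted p of 0.507 in limma. Its other 2 probe sets, above the array median on 16 of 16 arrays, gave 0.02 and -0.09 for that difference, so the size rests on 1 probe set. For TiO2 they gave 0.02 and -0.08 in non-pregnant and 0.04 and -0.17 in pregnant mice. The sign of Col4a4 is therefore not settled in these comparisons. Col15a1, a chain at the outer face of vessel and muscle basement membranes, read 7.54, 7.44, 7.68 and 7.16 after PBS and 6.92, 7.21, 7.09 and 7.21 after TiO2 in non-pregnant lungs. Its difference was -0.35 ± 0.15 (limma, adjusted p = 0.550). In that comparison the 8 fat markers lay lower with none called, as did most thymus, cardiac and proliferation markers. Their part in the Col15a1 values was not tested. Without non-pregnant PBS replicate 4 the Col15a1 difference was -0.45 and without replicate 3 it was -0.27, both of them thymus-bearing arrays. With Glycam1 as a covariate the Col15a1 difference was -0.25. Col18a1, the source of endostatin, differed by at most 0.09 in size in the 5 comparisons between groups. Its second probe set, above the array median on 16 of 16 arrays, gave 0.17 for TiO2 in pregnant mice against -0.03, -0.16 for pregnancy after PBS against -0.08 and 0.13 for pregnancy after TiO2 against -0.02, so the sign differed in 2 of these.

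Type VI chains Col6a1, Col6a2 and Col6a3 form the beaded filament in a single trimer. Col6a3 read 10.49, 10.56, 10.70 and 10.74 in pregnant TiO2 lungs and 10.70, 11.02, 10.95 and 11.11 in non-pregnant TiO2 lungs, which overlapped by 1 array of each group. The difference was -0.32 ± 0.10, the lowest adjusted p of that comparison among chains (limma, 0.147). Col6a1 read 11.09, 11.27, 11.32 and 11.23 against 11.37, 11.48, 11.42 and 11.37, without overlap, with a difference of -0.18 ± 0.08 (adjusted p = 0.289 in limma). Col6a2 was -0.15 ± 0.09. After PBS the pregnancy differences of the 3 were smaller, at -0.09, -0.07 and -0.11 for Col6a3, Col6a1 and Col6a2. Col6a4 and Col6a5 were near the lowest value of the scale.

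**Figure D4:**
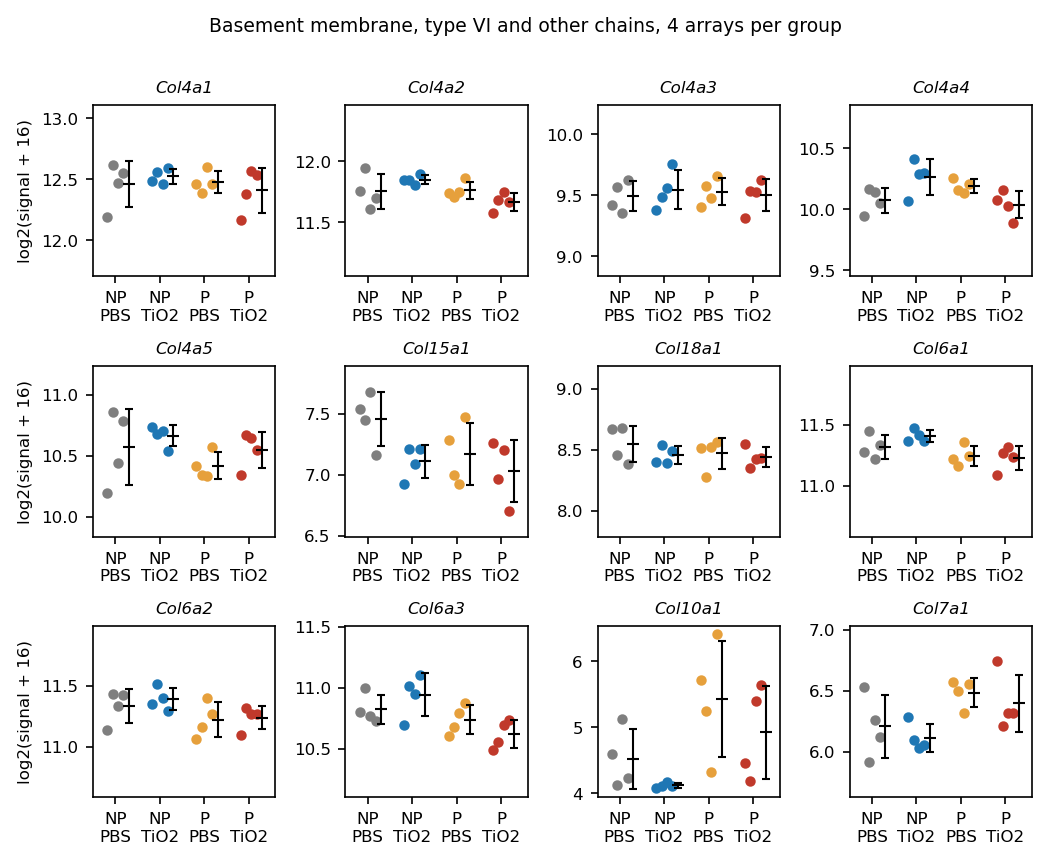
log2(signal + 16) of 7 basement membrane chains, 3 type VI chains, Col10a1 and Col7a1, 1 point per array, with mean and SD of each group of 4 (NP non-pregnant, P pregnant; separate axes). Col4a2 and Col6a1 readings of pregnant TiO2 lungs lie below those of non-pregnant TiO2 lungs, and Col10a1 starts at the lowest value of the scale.

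The fibril-associated chain Col16a1 separated in both directions that involve pregnant TiO2 lungs. It read 8.74, 8.69, 8.78 and 8.82 there, 8.29, 8.42, 8.68 and 8.60 in pregnant PBS lungs, and 8.56, 8.65, 8.59 and 8.53 in non-pregnant TiO2 lungs. Pregnant TiO2 lungs lay above both of these groups, while non-pregnant PBS lungs reached the same level at 8.77, 8.53, 8.79 and 8.79. TiO2 against PBS in pregnant mice was 0.26 ± 0.09 (limma, adjusted p = 0.804), and 1 of 42 chains, against 1.86% of all genes, separated upward. Pregnancy after TiO2 was 0.18 ± 0.09 (adjusted p = 0.371), where 2 of 42 chains and 7.48% of all genes separated upward. The difference of the TiO2 responses was 0.40 ± 0.13 (limma, adjusted p = 0.492). Col14a1, another chain that decorates fibrils, was -0.24 ± 0.11 with pregnancy after PBS, and its second probe set above the filter gave -0.19.

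Col10a1, the hypertrophic cartilage chain, was the other one to separate upward with pregnancy after TiO2. It read 4.46, 4.19, 5.40 and 5.64 in pregnant TiO2 and 4.08, 4.11, 4.17 and 4.11 in non-pregnant TiO2 lungs, which lay at the lowest end of the scale. After PBS it read 5.72, 5.24, 4.31 and 6.41 in pregnant and 4.59, 4.12, 5.13 and 4.22 in non-pregnant lungs, with overlap. It exceeded the array median on 1 of 16 arrays. In the mean of both exposures the difference was 0.86 ± 0.27, with an interval of 0.27 to 1.44 and an adjusted p of 0.127 in limma. Leaving out pregnant PBS replicate 3 gave 1.04 and an adjusted p of 0.0404. That was the only call of a chain under any alternative tried. Cartilage markers lay higher in pregnant lungs in 9 of 12 cases in the same mean, with 3 of the 12 above the signal filter and none called. Their summed signal was 743.9 to 1278 in pregnant PBS, 1045 to 1223 in pregnant TiO2, 981.3 to 1064 in non-pregnant PBS and 927.4 to 1128 in non-pregnant TiO2 lungs, and its part in Col10a1 was not tested.

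Col7a1, the chain of the anchoring fibrils beneath stratified epithelium, read 6.57, 6.50, 6.32 and 6.56 in pregnant and 6.53, 5.92, 6.26 and 6.13 in non-pregnant PBS lungs. Values after TiO2 were 6.74, 6.21, 6.32 and 6.32 in pregnant and 6.28, 6.10, 6.03 and 6.06 in non-pregnant lungs. Pregnant arrays tended to be the higher ones, with overlap at both exposures. The mean difference was 0.28 ± 0.09 (limma, adjusted p = 0.154). Squamous epithelium markers, which accompany that tissue, summed to 7455 to 16210 in non-pregnant PBS and 12200 to 15630 in pregnant PBS lungs. After TiO2 they summed to 11840 to 15090 in non-pregnant and 135.3 to 17180 in pregnant lungs, where the lowest is replicate 2. Without that array the Col7a1 difference was 0.31. The membrane-spanning chain Col23a1 was -0.17 ± 0.07 in the mean of both exposures (limma, adjusted p = 0.274), and its other 2 probe sets gave -0.17 and -0.16.

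Partner chains were compared over arrays after the mean of each group had been removed, in 15 pairs that share a trimer or fibril. Col6a1 and Col6a2 had the highest Spearman rho of the 15 pairs, while 2 other pairs had a higher Pearson r. Pearson r was 0.73 (permutation p = 0.00641, adjusted 0.0524) and Spearman rho 0.82 (permutation p = 0.00103, adjusted 0.0154). Without the 2 arrays farthest from the median r was 0.67. Col3a1 and Col5a2 gave r = 0.75 (permutation p = 0.00699, adjusted 0.0524) and rho = 0.69 (p = 0.0217, adjusted 0.108), and 0.54 without the 2 farthest arrays. For Col1a1 and Col3a1 r was 0.75 (permutation p = 0.0145, adjusted 0.0724) and rho 0.71 (p = 0.0112, adjusted 0.084), with r at 0.42 without the 2 farthest, so that relation leaned on them. Col1a1 and Col1a2 gave 0.65 and 0.63 (permutation p = 0.076 and 0.0397, adjusted 0.228 and 0.149). Col6a1 with Col6a3 gave r = 0.53 (permutation p = 0.0438, adjusted 0.164), and 0.35 without the 2 farthest arrays. Col4a1 with Col4a2 gave r = 0.43 and Col4a3 with Col4a4 r = 0.06, neither past a permutation p of 0.05. Col8a1 with Col8a2 gave r = -0.02. Over the 351 pairs of chains above the filter, the median r was 0.08 and the range -0.82 to 0.84. Arrays differed in brightness before normalization, by up to 1.92-fold in trimmed mean. With the values as deposited r was higher in these pairs, and the cause was not tested. For Col5a1 with Col5a2 the normalized values gave r = 0.26 (permutation p = 0.301).

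**Figure D5:**
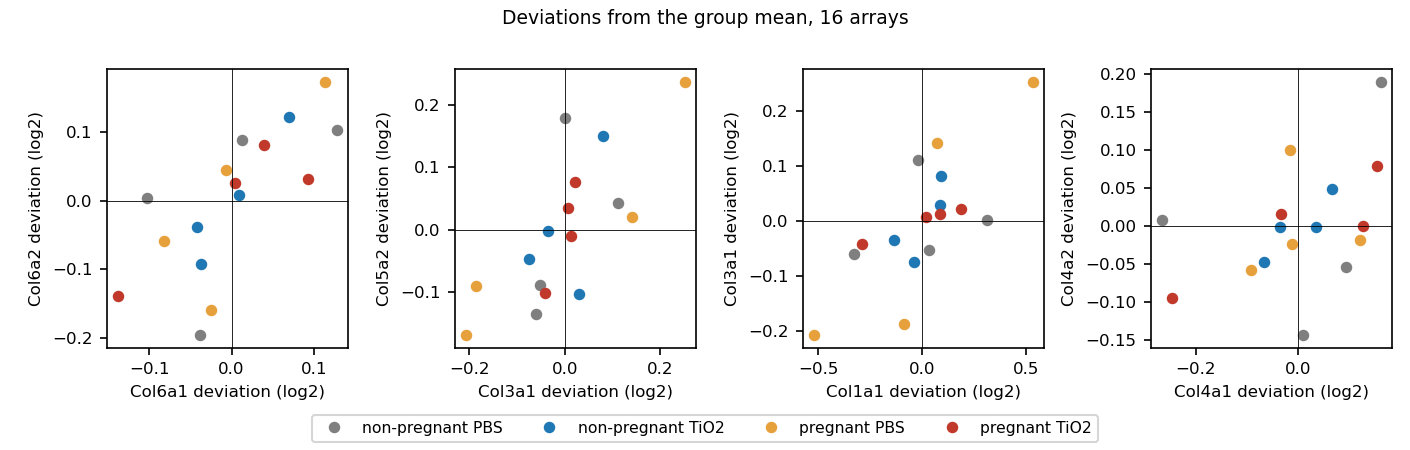
Deviation from the group mean (log2) of 4 pairs of partner chains, 1 point per array, coloured by group (n = 16). Pearson r is 0.73 for Col6a1 with Col6a2, 0.75 for Col3a1 with Col5a2 and 0.75 for Col1a1 with Col3a1. Their adjusted permutation p-values are 0.0524, 0.0524 and 0.0724. For Col4a1 with Col4a2 r is 0.43.

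By position, 14 of the 42 chains form 7 pairs with no other protein-coding gene between them in RefSeq's gene order (GRCm38.p6). They are Col3a1 and Col5a2, Col4a3 and Col4a4, Col4a1 and Col4a2, Col4a5 and Col4a6, Col6a1 and Col6a2, Col6a4 and Col6a5, and Col9a1 and Col19a1. The upstream windows of Col6a1 (chr10:76726045-76726294) and Col6a2 (chr10:76623631-76623880), both on the minus strand, are shown because these 2 neighbours had the highest rho. Capitals mark a match to the same 3 motifs.
Col6a1: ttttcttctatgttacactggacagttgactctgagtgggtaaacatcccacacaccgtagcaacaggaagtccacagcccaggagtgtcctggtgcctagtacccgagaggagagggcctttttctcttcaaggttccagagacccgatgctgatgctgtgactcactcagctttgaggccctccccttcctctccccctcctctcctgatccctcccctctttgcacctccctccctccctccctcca
Col6a2: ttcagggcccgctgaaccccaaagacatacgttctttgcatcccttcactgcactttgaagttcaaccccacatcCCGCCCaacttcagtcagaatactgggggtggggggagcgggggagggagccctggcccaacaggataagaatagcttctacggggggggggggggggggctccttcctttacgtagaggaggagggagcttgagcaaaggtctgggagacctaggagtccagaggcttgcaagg
The Col6a2 window holds 1 GC box match on the opposite strand, and the Col6a1 window holds no match to these letters.

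Genes that make, process, bind or sense collagen were read from 6 lists: 73 of 79 were measured and 62 passed the signal filter. None was called for TiO2, for the difference of the TiO2 responses or for pregnancy after PBS, and 1 of 73 fell with pregnancy after TiO2 and 2 of 73 in the mean of both exposures, against 0.775% and 2.3% of all genes called. At an unadjusted p under 0.05, limma gave 7, 6 and 8 of 73 for TiO2 in non-pregnant mice, TiO2 in pregnant mice and their difference, against 8.49%, 5.91% and 8.96% of all genes. It gave 14, 20 and 21 of 73 for pregnancy after PBS, after TiO2 and in the mean, against 10%, 15.8% and 15.4%. Prelp, a leucine-rich proteoglycan that links basement membrane to fibrils, read 11.21, 11.48, 11.32 and 11.36 in pregnant and 11.71, 11.65, 11.76 and 11.92 in non-pregnant TiO2 lungs, without overlap. It fell by 0.42 ± 0.09 there (limma, adjusted p = 0.0489) and by 0.31 ± 0.06 in the mean of both exposures (adjusted p = 0.0191). The call after TiO2 was lost in 12 of the 16 fits without 1 array, with adjusted p-values of 0.0367 to 0.149. Among these fits it held only without pregnant TiO2 replicate 2 or non-pregnant PBS replicates 1, 2 or 3. It was also lost in 6 of 13 other alternatives. These were the values as deposited (0.757), a common trimmed mean (0.0693) and a pseudocount of 1 (0.0655). The others were only the groups of the contrast (0.0763), another probe set (0.0762) and Glycam1 as a covariate (0.161). The call in the mean held in all 16 fits without 1 array. It was lost with the values as deposited (0.827), with Glycam1 as a covariate (0.0823) and with another probe set (0.132). P4ha1, a catalytic subunit of the prolyl hydroxylase that stabilizes the triple helix, fell by 0.32 ± 0.07 in that mean (limma, adjusted p = 0.0294). That call was lost in 9 of the 16 fits without 1 array, with adjusted p-values of 0.00698 to 0.0671, and with the mean of all probe sets (0.26), Glycam1 as a covariate (0.104) and the values as deposited (0.801). Among the fits without 1 array it held without non-pregnant PBS replicates 1, 3 or 4, non-pregnant TiO2 replicates 2 or 3, or pregnant PBS replicates 2 or 4. It read 8.93, 8.89, 8.96 and 8.96 in pregnant and 9.45, 9.27, 9.22 and 9.47 in non-pregnant TiO2 lungs. After PBS it read 8.85, 9.01, 8.82 and 9.02 in pregnant and 9.41, 9.20, 8.90 and 9.13 in non-pregnant lungs, with overlap.

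Serpinh1, the collagen chaperone of the endoplasmic reticulum, was -0.30 ± 0.09 in the mean of both exposures (limma, adjusted p = 0.116). Plod2, which hydroxylates telopeptide lysines for cross-links, was -0.30 ± 0.11 (adjusted p = 0.210). Of 22 measured genes that modify and fold chains, 14 lay lower with pregnancy in that mean, with a median of -0.03. Of the 15 fibril-binding proteoglycans, 12 lay lower with pregnancy after PBS, with a median of -0.21, among them Dcn at -0.21, Lum at -0.27 and Fmod at -0.33, none called. Basement membrane partners such as laminins and nidogens had a median of -0.005 in that comparison, with 7 of 14 on each side. They lay lower in 10 of 14 cases after TiO2 (median -0.09) and 11 of 14 in the mean (-0.04), none called. Of all genes, 44.4% and 46.5% lay lower there. The proteoglycans lay lower in 8 of 15 (-0.006) and 10 of 15 (-0.11). For TiO2 in non-pregnant mice 12 of 14 partners lay higher, with a median of 0.11.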

How the data were processed

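Deposited values are 1 linear intensity per probe set and array, as the authors' table gives it, not scaled between arrays. Per the submitters' processing notes the tools were GCOS, MAS5 and RMA, with versions, roles and order not given in the sources used here. Which of them set low values is thus unknown, and array number limits the precision.

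After 64 control probe sets were left out, the remaining 45037 were quantile-normalized, and log2(value + 16) was taken. Probe sets were named from GEO's platform annotation, updated by Entrez identifier: 34945 had 1 symbol, 932 several and 9160 none listed. The probe set of highest mean stood for each gene, without a filter. limma 3.58.1 (lmFit, eBayes; R 4.3.3) was fitted to 4 group means over 16 arrays (12 residual degrees of freedom), with Benjamini-Hochberg adjustment over 18193 genes. The code was tested on simulated data.

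Replicate numbers are accession order and pair nothing. The rule for named chains was the 4 of smallest p per direction and comparison, plus fixed structural chains. Of these, Col2a1, Col8a2, Col9a1, Col9a2, Col9a3, Col11a1, Col20a1 and Col26a1 are given no difference in the text. Col6a2, Col14a1, Col18a1 and Col27a1, and pathway genes outside the rule, were named as examples after their values were seen. The members and the gene lists were chosen with earlier results of these data known. Alternatives were other scalings, pseudocounts, a signal filter, a variance trend, array weights, other probe set choices, a Glycam1 covariate and leaving out arrays. Promoter windows and gene order are RefSeq's (GRCm38.p6).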

Additional observations from a re-analysis of the deposited data

Results flagged for a closer look

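In 4 of 96 groups of 4 arrays checked over 24 named chains, a single array stood far from the others; chance gives about 1 in 20, or 4.8 here. Col16a1 was 8.53 on non-pregnant PBS replicate 2, the array with conflicting label fields, against 8.77 to 8.79 on the other arrays of its group. Col1a2 was 12.03 on non-pregnant TiO2 replicate 4, against 11.93 to 11.95 on the others. Col20a1 was 5.86 on pregnant PBS replicate 3, against 6.17 to 6.19. Col9a3, below the signal filter, was 4.10 on pregnant TiO2 replicate 2, the array without Krt13 and Acta1, against 4.74 to 4.82.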

How the results depend on the processing

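The count of called chains was 0 in each comparison under every alternative except 1: without pregnant PBS replicate 3 it was 1 (Col10a1) in the mean of both exposures, so leaving out arrays gave 0 to 1. The lowest adjusted p of any chain ran over the alternatives from 0.212 to 0.87 and 0.521 to 1 for TiO2 in non-pregnant and pregnant mice and 0.221 to 0.818 for their difference. For pregnancy it ran from 0.0502 to 0.748 after PBS, 0.0823 to 0.726 after TiO2 and 0.0404 to 0.29 in their mean.

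With the values as deposited, the median of all genes itself moved to 0.124, -0.072, -0.193, 0.127 and -0.068 for TiO2 in non-pregnant mice, TiO2 in pregnant mice, their difference, pregnancy after PBS and pregnancy after TiO2. Chain medians moved with it, and only those that moved by more than the between-array SD of their set median are given. That SD was 0.3 for fibrillar chains, 0.17 for all chains, 0.09 for basement membrane and 0.08 for other chains. For fibrillar chains the median signal level is that of Col27a1 on every array, and the within-group SD of Col27a1 was also 0.3. The median deviation of fibrillar chains from their means over arrays varied less, with SDs of 0.09 to 0.17 within groups. The fibrillar cutoff was therefore wide, and a smaller shift of the fibrillar median is not listed. Absence of fibrillar medians from the list does not show that they were stable. For TiO2 in non-pregnant mice medians moved to 0.12 (all chains), 0.22 (basement membrane) and 0.11 (other), and in pregnant mice to -0.12 (other). The difference of the TiO2 responses became -0.19 (all chains), -0.26 (basement membrane) and -0.23 (other). Pregnancy gave 0.10 (basement membrane) after PBS, and -0.18 (basement membrane) and -0.11 (other) after TiO2. The mean of all probe sets gave basement membrane chains -0.15 for the difference of the TiO2 responses. Within-group r with the values as deposited was 0.877 for Col4a1 with Col4a2, 0.849 for Col4a3 with Col4a4, 0.969 for Col6a1 with Col6a2, 0.883 for Col6a1 with Col6a3 and 0.844 for Col3a1 with Col5a2. Col8a1 with Col8a2 turned from -0.02 to 0.609 there and to 0.091 without the thymus-bearing pair and pregnant TiO2 replicate 2; the cause was not tested.

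Counts of called genes overall were less stable: 18 to 162 for pregnancy after PBS, 1 to 565 after TiO2 and 57 to 753 in their mean, and 36 to 157, 14 to 234 and 267 to 687 when single arrays were left out. No paired analysis was possible because the labels give no replicate numbers that groups share. With 4 arrays a group, chains near the lowest signal are limited most.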
